A study of Caenorhabditis elegans with 2 samples.

Results

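The 80 protein-coding genes described here carry worm symbols that begin with rab-, vps-, snx-, arf- or sec- and a digit, out of 19973 protein-coding genes on the nuclear chromosomes. They were taken by symbol, in Ensembl release 115 on WBcel235, and comprise 31 vps, 20 rab, 19 sec, 7 snx and 3 arf genes. The set was chosen with earlier results of these data known. Binding of ARID-1, whose name refers to its AT-rich interaction (ARID) domain, was measured by ChIP-seq with an antibody against GFP. The worms were whole Caenorhabditis elegans L4 larvae of strain RW12194, genotype st12194[arid-1::TY1::EGFP::3xFLAG] V, in which CRISPR placed the tag in arid-1 itself. They were synchronised as starved first-stage larvae after bleaching and collected at 47 hours. There is 1 group with 2 biological replicates, so no condition is compared, and the worms' tissues are pooled in each library. Values from control libraries were not analysed here. The labels give the replicates different biosamples and do not say how their cultures were kept apart.

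Membrane traffic carries proteins and lipids between compartments in vesicles and tubules. Proteins enter the endoplasmic reticulum (ER) through the Sec61 channel, leave it in vesicles with a COPII coat, and reach the surface with the help of the exocyst, a tether for secretory vesicles. Small GTPases of the Rab and Arf families mark compartments and recruit coats, tethers and motors. In the endosomal path, ESCRT complexes sort membrane proteins into inward buds, HOPS and CORVET tether endosomes and lysosomes, retromer and sorting nexins return cargo, and GARP and EARP tether vesicles at the Golgi and at recycling endosomes. Some worm genes of this kind have other names, such as unc-108 for RAB-2, and are not among the 80.

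A summit of the series' conservative peak list lay at most 500 bp from the annotated 5' end for 15 of the 80 genes, which is 18.8% (exact 95% interval 10.9 to 29.0), against 5.68% of all protein-coding genes. A summit is the position of highest signal in a peak. The conservative list keeps peaks with an irreproducible discovery rate (IDR) of at most 0.01. The IDR is low for peaks that rank both high and alike in the sets compared. With 250 bp windows 9 of the 80 held one, against 3.52% of all genes. By prefix, a summit lay at 7 of 19 sec genes (36.8%, interval 16.3 to 61.6), 1 of 3 arf genes (33.3%, 0.84 to 90.6), 3 of 20 rab genes (15%, 3.21 to 37.9), 1 of 7 snx genes (14.3%, 0.361 to 57.9) and 3 of 31 vps genes (9.68%, 2.04 to 25.8). In this window the sec genes had the highest share and the vps genes the lowest, but the 5 intervals overlap and the difference between prefixes was not tested. Only the sec interval lay wholly above the 5.68% of all genes in this window, and those of the other prefixes include it. The top prefix changes with the assignment: the arf genes led with 2 of 3 when any transcript start counts, and with 1 of 3 (33.3%) against 26.3% of the sec genes by nearest gene. These intervals cover counting error only, and genes that share a complex or a promoter are not independent.

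**Figure D1:**
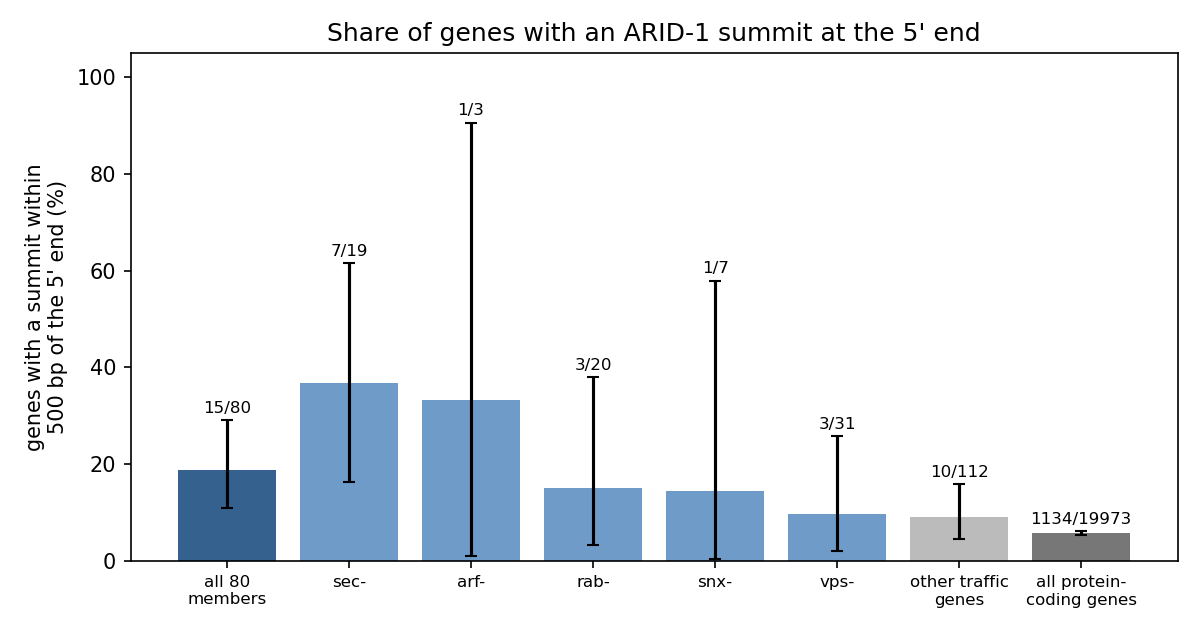
Share of genes (percent, vertical axis) with a summit within 500 bp of the 5' end, for all 80 members, each prefix, other traffic genes and all protein-coding genes. Bars are shares, lines are exact 95% intervals, and the fraction above each bar is the number of genes. The sec genes stand at 36.8%, and all protein-coding genes at 5.68%.

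The Sec61 channel, through which new proteins enter the ER, had a summit at each of its 3 genes (interval 29.2 to 100%), against 5.68% of all genes. Its small subunit gene sec-61.G had the highest peak of all members, on chrV:10897308-10897426, with a signal of 95.5 in replicate 1 and 124.6 in replicate 2 (110.0 ± 20.6, SD, n = 2). Signal is the value that the authors' caller assigned to a peak, and its unit is not given. The summit lay in intergenic sequence, 241 bp upstream of the 5' end. At sec-61.B, for the beta subunit, the peak on chrIV:2389035-2389304 had a signal of 100.8 in replicate 1 and 88.7 in replicate 2 (94.7 ± 8.57, n = 2). Its summit lay 495 bp upstream of sec-61.B, close to the edge of the window, and nearer (275 bp) to the divergent gene trap-3, which encodes a subunit of the translocon-associated protein complex. This summit is in an exon of the non-coding RNA gene Y38F2AR.17. At sec-61.A, for the subunit that forms the pore, the signal was lower, with 41 and 36.8 in replicates 1 and 2 (38.9 ± 2.99, n = 2). Its peak on chrIV:14824947-14825216 had its summit in the 5' UTR, 182 bp downstream of the 5' end. A second summit lay in a coding exon of sec-61.A, 2077 bp downstream of the 5' end (27.6 ± 5.4, n = 2). With windows of 250 or 400 bp, or each summit given to the nearest 5' end in the window, sec-61.B held none. The gene sec-61.A held none in the own list of replicate 2 or among the conservative peaks of higher signal. Only sec-61.G held a summit under every setting.

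The exocyst had a summit at 3 of its 6 genes, sec-15, sec-3 and sec-10 (interval 11.8 to 88.2%), against 5.68% of all genes. The promoter peak of sec-15, on chrX:8836034-8836156, had a signal of 112.6 in replicate 1 and 87.1 in replicate 2 (99.8 ± 18, n = 2). It was the only one of the members' 15 promoter peaks that overlapped a tRNA, snoRNA or snRNA gene, here a tRNA gene. Its summit lay inside that tRNA gene, 403 bp upstream of sec-15 and 102 bp from the 5' end of C28G1.2. The position is also in the 5' UTR of C28G1.2, a gene that points away from sec-15. An exon of the non-coding RNA gene C28G1.8 covers it too. Reads of near-identical tRNA copies can be placed uncertainly. At sec-3 the peak on chrX:3099890-3100159 lay in intergenic sequence, 173 bp upstream, with 49.5 and 69.1 in replicates 1 and 2 (59.3 ± 13.9, n = 2). The summit at sec-10 lay in a coding exon, 56 bp downstream of the 5' end, with 34.8 and 26.7 (30.7 ± 5.76, n = 2), and was in neither replicate's own thresholded list. Windows of sec-5 and sec-8 held no ranked peak at all, and the best one at sec-6 had a −log10 IDR of 0.55, where 2 is the threshold.

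Of the 7 members for the COPII coat and its assembly, only sec-24.1 held a summit (14.3%, interval 0.361 to 57.9), against 5.68% of all genes. SEC-24 proteins bind the cargo of COPII vesicles. The peak on chrIV:11566209-11566478 had a signal of 66.3 in replicate 1 and 43.8 in replicate 2 (55.0 ± 15.9, n = 2), with its summit 150 bp upstream, in exons of the non-coding RNA genes F12F6.13 and F12F6.14. Windows of sec-12, sec-16A.1 and sec-24.2 held no ranked peak, and the best at sec-16A.2, sec-23 and sec-31 reached −log10 IDR values of 1.56, 0.383 and 0.0775. The SNARE genes sec-20 and sec-22, for membrane fusion between ER and Golgi, and sec-11, for a subunit of signal peptidase, held no summit.

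The sequences around 4 of the members' higher intergenic summits, at most 2 for a prefix, are given, to show which hold the motifs counted below. Each is given on the strand of its gene, with 100 bases on either side of the summit, read from the RefSeq sequence of WBcel235. Capitals mark matches on either strand to any of 5 motifs searched. In these 4 windows the matches are to CTGCGTCT, which reads AGACGCAG on the other strand, and to GAGAGA, which reads TCTCTC there.
sec-61.G, chrV:10897284-10897484, minus strand: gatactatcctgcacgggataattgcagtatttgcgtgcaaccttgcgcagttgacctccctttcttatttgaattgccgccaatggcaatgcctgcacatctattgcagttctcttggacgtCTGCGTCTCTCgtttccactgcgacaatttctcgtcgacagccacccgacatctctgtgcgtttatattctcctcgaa
vps-60, chrV:8606364-8606564, minus strand: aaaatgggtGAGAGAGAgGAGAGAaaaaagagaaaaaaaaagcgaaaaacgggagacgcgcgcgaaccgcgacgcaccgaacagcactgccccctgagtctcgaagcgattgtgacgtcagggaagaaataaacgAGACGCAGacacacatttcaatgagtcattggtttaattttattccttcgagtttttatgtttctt
vps-39, chrV:14038773-14038973, minus strand: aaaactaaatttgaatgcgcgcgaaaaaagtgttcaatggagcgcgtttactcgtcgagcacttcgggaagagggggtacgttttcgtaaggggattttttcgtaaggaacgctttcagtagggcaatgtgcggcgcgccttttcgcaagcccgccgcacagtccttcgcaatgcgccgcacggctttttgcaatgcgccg
snx-13, chrIV:17087576-17087776, minus strand: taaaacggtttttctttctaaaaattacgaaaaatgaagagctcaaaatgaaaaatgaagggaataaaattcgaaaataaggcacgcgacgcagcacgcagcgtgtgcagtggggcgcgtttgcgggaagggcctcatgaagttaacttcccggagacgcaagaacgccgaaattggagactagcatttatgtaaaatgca

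At sec-61.G the matches to CTGCGTCT and GAGAGA overlap, and at vps-60 a run of GAGAGA repeats lies upstream of a separate CTGCGTCT on the other strand. The windows of vps-39 and snx-13 hold none of the 5 motifs. Over the members' 15 summit windows, CTGCGTCT occurred at 4 (26.7%), those of sec-61.G, vps-60, sec-24.1 and sec-3, against 11.8% of 944 promoter summit windows in all and 1.27% of windows 1000 bp to either side of those. GAGAGA occurred at 6 of the 15 (40.0%), against 28.9% of all promoter summits and 12.3% of their flanks. The GATA-type motif TGATAA occurred at 0 of the 15, against 9.64% of all promoter summits. The E-box CACGTG also occurred at 0, against 5.19%. The motif AATATT occurred at 1, in the window of sec-61.A (6.67%), against 15.5%. The GC share of the members' windows had a median of 43.3% and ran from 36.8% at vps-51 to 55.7% at sec-61.B, and the median over all promoter summits was also 43.3%. These are descriptions of 15 windows, and no test was made. The motifs were chosen with earlier results of these data known, so their shares at summits and flanks are no independent support.

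Of 31 vps genes, which serve the endosomal path, 3 held a summit, each in a different complex. At vps-39, for a HOPS subunit, the signal was 62.1 in replicate 1 and 72.2 in replicate 2 (67.1 ± 7.18, n = 2), with a summit 495 bp upstream. That peak overlaps a pseudogene, and with 250 bp windows no vps gene held a summit. At vps-60, for a protein of the ESCRT-III group, the replicates gave 80.3 and 52.6 (66.5 ± 19.6, n = 2) with a summit 336 bp upstream. At vps-51, for a subunit that GARP and EARP share, they gave 37.6 and 48.3 (43.0 ± 7.57, n = 2). Its summit lay 251 bp upstream of vps-51 and 167 bp from the divergent gene lin-35, the worm gene for a protein of the retinoblastoma family.

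Beyond the window, a summit lay 602 bp upstream of vps-37, for an ESCRT-I subunit, on chrV:5591963-5592232, and had a signal of 90.4 in replicate 1 and 90.2 in replicate 2 (90.3 ± 0.102, n = 2). The nearest summits lay 609 bp upstream of vps-22 and 1013 bp upstream of vps-36, both for ESCRT-II subunits, and 644 bp upstream of vps-32.1, for an ESCRT-III subunit. The summit at vps-36 gave 27.7 and 39.1 in replicates 1 and 2 (33.4 ± 8.04, n = 2). The summits near vps-22 and vps-32.1 lie nearer to the 5' end of another gene. With a window from 1000 bp upstream the members with a summit numbered 19 (23.8%), against 7.09% of all genes, and the 4 gained were vps-22, vps-32.1, vps-37 and rab-7. Below the IDR threshold, 5 of the 10 ESCRT genes without a summit had a ranked peak with a −log10 IDR of at least 1 in the window. Among all 65 members without a summit there were 11 (16.9%), these 5 included, against 4.53% of all genes without one. The ESCRT values were 1.79 at vps-4, the ATPase that takes ESCRT-III apart, 1.65 at vps-25, 1.33 at vps-28, 1.21 at vps-32.1 and 1.16 at vps-37.

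Retromer and its sorting nexins held a summit at 0 of 7 genes (vps-26, vps-29, vps-35, snx-1, snx-3, snx-6 and snx-27), against 5.68% of all genes. The exact interval for these 7 reaches up to 41% and includes the share of all genes. The best ranked peaks of these 7 were at snx-3 (−log10 IDR 1.57) and vps-35 (0.519). The 1 snx gene with a summit was snx-13, for a sorting nexin with an RGS domain. Its signal was 35.5 in replicate 1 and 59.1 in replicate 2 (47.3 ± 16.7, n = 2), the widest spread between replicates as a ratio among the 15, and the log2 ratio of replicate 2 to replicate 1 was 0.74. The summit lay 238 bp upstream of snx-13 and 373 bp from the divergent gene snr-1, which encodes an Sm protein of the spliceosome.

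Among the 20 Rab genes, rab-18, rab-14 and rab-11.1 held a summit. At rab-18, for a Rab of the ER and lipid droplets, the replicates gave 57.1 and 53.4 (55.3 ± 2.61, n = 2). Its summit lay in the 5' UTR, 17 bp downstream of the 5' end and 143 bp from the divergent gene kbp-4. At rab-14, for an endosomal Rab, they gave 47.7 and 39.2 (43.4 ± 6.06, n = 2), with an intergenic summit 467 bp upstream. At rab-11.1, for a Rab of recycling endosomes, they gave 42.3 and 31.3 (36.8 ± 7.77, n = 2), with a summit in a coding exon 137 bp downstream, and this peak was absent from the other thresholded list of the series. All 3 peaks were higher in replicate 1, though how the lists of the replicates were scaled is not stated in the labels or headers. The paralog rab-11.2 held no ranked peak in its window, and nor did rab-3, for the Rab of synaptic vesicles, or rab-28. The genes rab-5 and rab-1, for Rabs of early endosomes and of transport from ER to Golgi, had best −log10 IDR values of 0.186 and 0.0775. At rab-6.1, for a Golgi Rab, the value was 1.66, and at rab-7, for a late endosomal Rab, it was 1.04. A summit with 50.4 and 42.5 in replicates 1 and 2 (46.5 ± 5.61, n = 2) whose nearest protein-coding 5' end is that of rab-7 lay 1904 bp downstream of it, in a coding exon of W03C9.2. Another summit lay closer to rab-7, 781 bp upstream of its 5' end, but is nearer to the 5' end of another gene.

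Of the 3 Arf genes, arf-6 held a summit, with 28.6 in replicate 1 and 30.8 in replicate 2 (29.7 ± 1.54, n = 2), the lowest of the 15. ARF-6 acts at the plasma membrane and endosomes. The summit lay 161 bp upstream of arf-6 and 159 bp from the divergent gene Y116A8C.9, and like that of sec-10 it was in neither replicate's own thresholded list. The window of arf-5 came closest to the threshold among members without a summit, with a −log10 IDR of 1.91, while the summits of sec-10 and arf-6 passed it with 2.25 and 2.34. The value at arf-1 was 0.857, and a summit with 24.8 and 33.5 in replicates 1 and 2 (29.1 ± 6.12, n = 2) lay in an intron of arf-1, 831 bp downstream of its outermost 5' end. When any annotated transcript start counts as a 5' end, arf-1 and vps-25 also held a summit, 17 members in all (21.2%) against 6.12% of all genes.

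**Figure D2:**
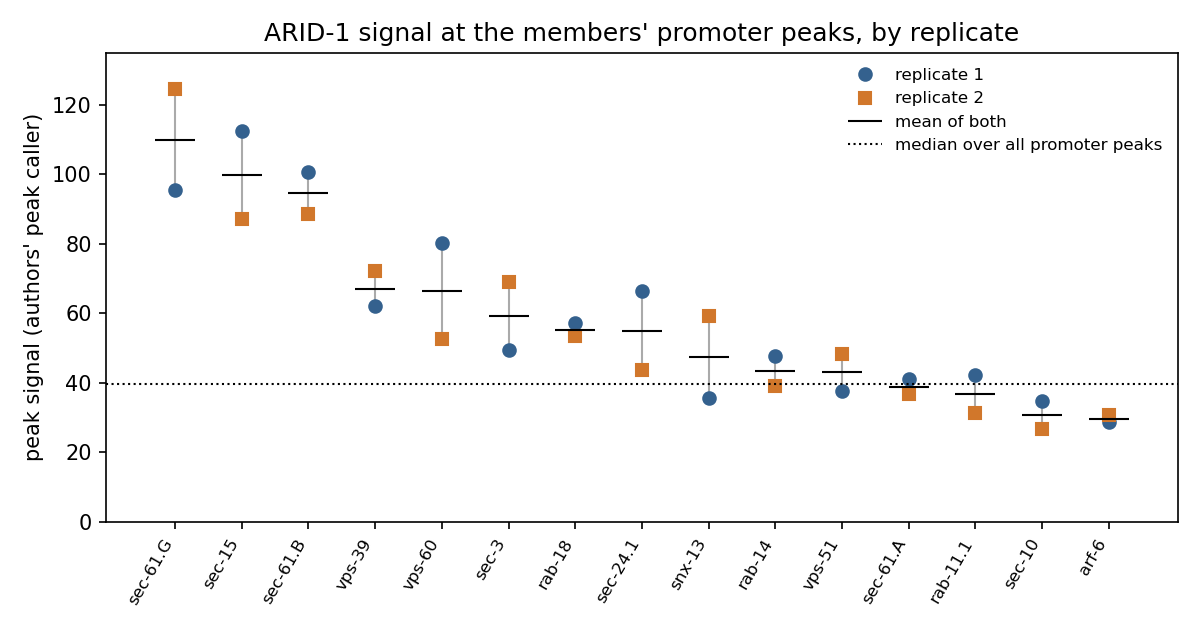
Peak signal (vertical axis, the authors' value, no unit) at the promoter peak of each of the 15 members with a summit, ordered by the mean. Circles are replicate 1, squares replicate 2, short lines their mean, and the dotted line is the median of that mean over promoter peaks of all genes (39.7). The peaks at sec-61.G, sec-15 and sec-61.B stand above the rest in both replicates.

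The members' promoter peaks had a median signal of 55.0 (mean of the replicates, range 29.7 to 110.0, 15 peaks), against 39.7 over 928 promoter peaks found in both replicates' ranked lists. Above the median pooled signal of all promoter peaks were 11 of the 15. Among 944 promoter peaks ordered by pooled signal, those at sec-61.G, sec-15 and sec-61.B ranked 37, 48 and 60, and that at arf-6 ranked 797. At the 15 peaks the log2 ratio of replicate 2 over replicate 1 was -0.16 in the median (SD 0.42, range -0.61 to 0.74), against 0.11 (SD 0.43) at all promoter peaks. The replicate values of sec-61.G, sec-15 and sec-61.B overlap each other and lie above those of the other 12 members with a summit.

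In each replicate's own thresholded list 11 of the 80 genes (13.8%) held a summit, against 3.02% of all genes in replicate 1 and 3.04% in replicate 2. Both lists held 9 of them, namely rab-11.1, rab-14, rab-18, sec-15, sec-24.1, sec-3, sec-61.B, sec-61.G and vps-60. The list of replicate 1 alone added sec-61.A and vps-39, and that of replicate 2 alone added snx-13 and vps-51. All 11 genes of either list were also among the 15.

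**Figure D3:**
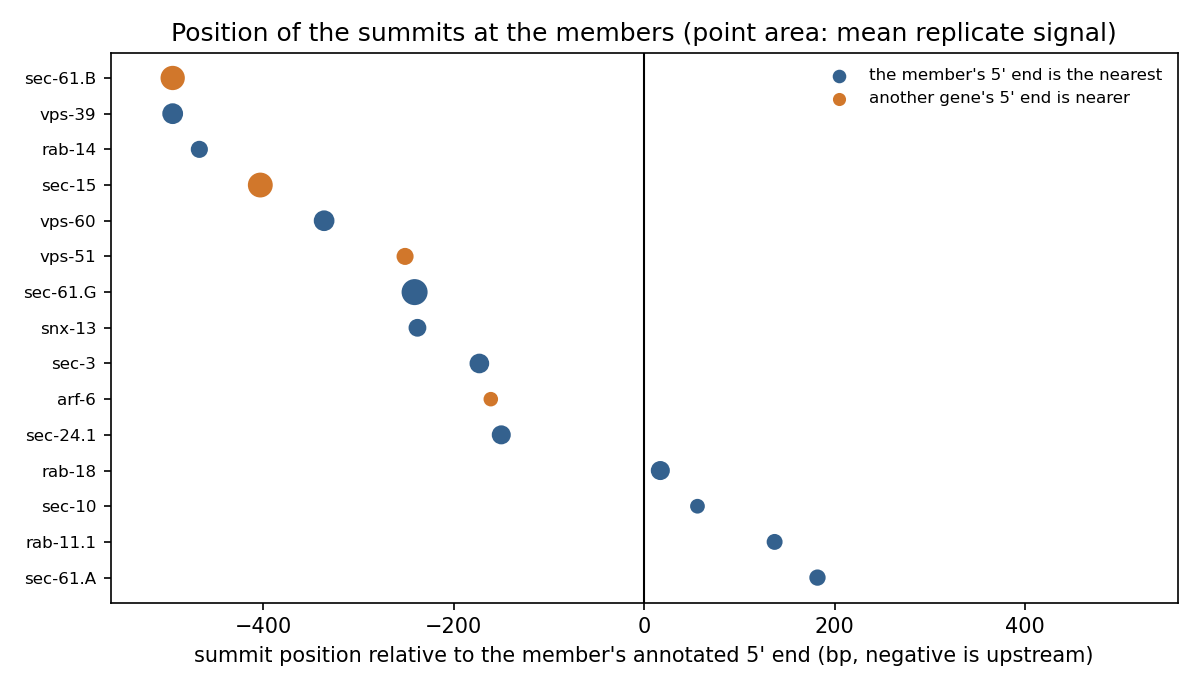
Position of the summit (horizontal axis, bp, negative is upstream) relative to the annotated 5' end of the 15 members, 1 row each. Point area grows with the mean signal of the replicates. The summits of 11 members lie upstream, and at 4 members (orange) the 5' end of another gene is nearer.

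Summits lay upstream of the 5' end at 11 of the 15 members (73.3%), against 80.6% of 1175 pairs of a gene and a summit over all protein-coding genes. The median position was 238 bp upstream for members and 171 bp upstream for all pairs. The summits of 4 members (26.7%), sec-61.B, vps-39, rab-14 and sec-15, lay more than 400 bp away, against 13.5% of all pairs. At 6 of the 15 another protein-coding 5' end lay within 500 bp of the summit as well (40.0%, against 38.7% of all pairs), and at sec-15, sec-61.B, vps-51 and arf-6 that other end was the nearer one. Many worm transcripts are trans-spliced, so the annotated end need not be where transcription starts.

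The next protein-coding gene lying wholly upstream pointed the other way at 13 of the 15 members with a summit (86.7%), against 62.6% of all 1134 genes with a summit. Among members without one this was so at 31 of 65 (47.7%), against 44.4% of all genes without one. The 2 exceptions were sec-3 and sec-10. The divergent neighbours include ribosomal protein genes, rps-18 at a distance of 414 bp from sec-61.A and rpl-7 at 980 bp from rab-11.1, whose 5' ends lie more than 500 bp from these summits. No test of these shares was made.

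When each summit was given to the protein-coding gene with the nearest 5' end at any distance, 15 members (18.8%) were the nearest gene of a summit, against 9.6% of all genes. Of these 15, 11 were also among those with a summit in the window, and the other 4 were arf-1, rab-7, vps-36 and vps-37. By prefix these were 5 of 19 sec, 1 of 3 arf, 4 of 20 rab, 1 of 7 snx and 4 of 31 vps genes. Under this assignment the shares of the sec genes (26.3%, interval 9.15 to 51.2) and the rab genes (4 of 20, 5.73 to 43.7) were closer to each other than by window. No prefix had an interval wholly above the 9.6% of all genes here, the sec genes included.

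Of the 65 members without a summit, 50 (76.9%) held some ranked peak within 500 bp of the 5' end, against 53.2% of all genes without a summit. The best −log10 IDR of those 50 had a median of 0.313 and ran from 0.0775 to 1.91, against a median of 0.221 for all such genes. A value of at least 1 was reached by 11 of the 65 (16.9%), against 4.53% of all genes without a summit. By prefix these were 6 of 28 vps, 2 of 17 rab, 1 of 12 sec, 1 of 6 snx and 1 of 2 arf genes. Besides those named above they include vps-45 (1.24), for a protein that controls SNAREs. The next value below 1 among members that were also not nearest to a summit was 0.876, at vps-15, for the regulatory subunit of the kinase VPS-34. No ranked peak lay in the windows of 15 members, 5 each of the vps and sec genes, 3 rab and 2 snx genes.

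**Figure D4:**
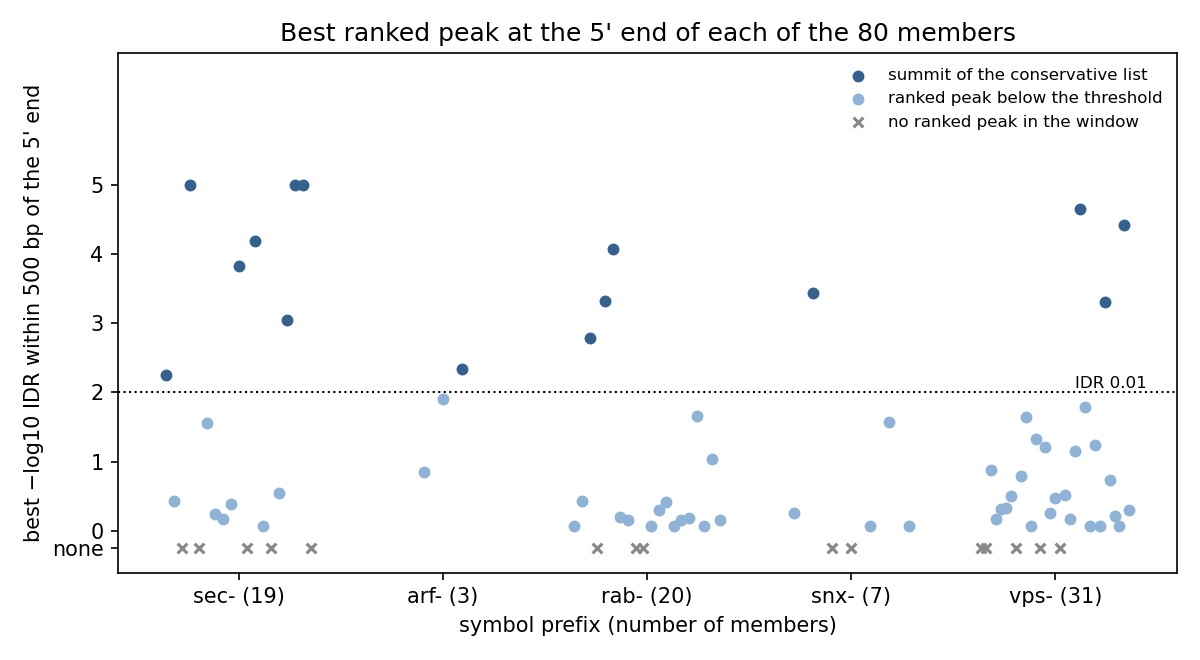
Best −log10 IDR (vertical axis, capped by the authors' list at 5) of any ranked peak within 500 bp of the 5' end of each of the 80 members, grouped by prefix. Dark points have a summit in the conservative list, pale points a ranked peak below the threshold (dotted line at 2), crosses no ranked peak. The highest pale point is arf-5 at 1.91.

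Other genes of membrane traffic with different symbols held summits at 10 of 112 (8.93%, interval 4.36 to 15.8), against 5.68% of all genes. That list was taken by symbol and prefix, and 4 of its entries, exo-1, exo-3, bet-1 and bet-2, match a prefix but encode other kinds of protein. Without them the count was 8 of 108 (7.41%). The highest 2 peaks lay upstream of genes for adaptor subunits, 228 bp from apb-1 (77.1 and 72.2 in replicates 1 and 2) and 273 bp from dpy-23 (73.4 and 72.1). They were followed by bet-2, for a bromodomain protein, with 49.6 and 49.0. The peak of sar-1, for the GTPase that starts the COPII coat, had a signal of 51.5 in replicate 1 and no overlapping ranked peak in replicate 2. Next came tbc-11, for a protein with a Rab GAP domain (34.2 and 35.1), and copz-1, for a COPI subunit (28.2 and 47.7). The peaks at tbc-11 and copz-1 lay nearer to the divergent genes pifk-1 and cyn-4.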

How the data were processed

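The labels describe 2 ChIP-seq libraries as biological replicates. The authors deposited peak lists on ce11, with a signal per peak from their peak caller and, in ranked lists, the −log10 IDR. The labels and headers name no aligner, caller, version or scaling, and depth is unknown. Of the 2330 conservative peaks, 2306 are nuclear, and each of these reaches a −log10 IDR of 2 or more in one of the series' ranked lists. That list gave values below the threshold. The replicates' own thresholded lists hold 1200 and 1229 nuclear peaks. Peaks lie within the chromosome lengths of WBcel235.

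A gene's 5' end was its outermost annotated end in Ensembl release 115. Replicate signal came from the overlapping peak of each replicate's ranked list with the nearest summit. Every member with a summit, every arf gene, members nearest to a summit outside the window, the 10 members with the highest −log10 IDR below the threshold and 6 other traffic genes are named. Sequences are those of up to 6 members' peaks, at most 2 a prefix; windows of sec-15 and rab-18 reach into UTRs and are not printed. No test was run, since there is 1 group; motif searches and counts were checked on placed summits. Members, lists and motifs were chosen with earlier results of these data known. Python 3.11.15, pandas 2.3.3 and SciPy 1.17.1 were used.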

Additional observations from a re-analysis of the deposited data

How the results depend on the processing

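Of 60 alternative values over 9 results, 45 stayed within 1.5 times the reported count or within the spread of the replicates' median signal, and the share of all 80 members with a summit stayed above that of all genes under each other list and window. For single prefixes it did not: the vps, arf and snx counts fell to 0 under the settings named next. With 31 vps, 3 arf and 7 snx genes, a count of 0 does not show a share below that of all genes. With 250 bp windows the members with a summit numbered 9, other traffic genes 5 of 112 and vps genes 0, against 3.52% of all genes. The median signal was then 47.3. In the replicates' own lists, other traffic genes with a summit numbered 5 in both, snx genes 0 to 1 and arf genes 0. Of all genes, 3.02% held one in replicate 1 and 3.04% in replicate 2. The median signal at the members was 53.4 to 62.1 in these lists. Among the peaks of higher signal the other traffic genes numbered 4 of 112, against 3.08% of all genes, and the median signal was 59.3. The arf count was 0 with each summit given to the nearest 5' end in the window, against 4.59% of all genes. The median signal was 51.7 with any transcript start, and 51.1 once peaks at small RNA genes were left out. The causes of these changes were not tested. Windows of 400 bp, added ranked peaks and the trimmed list of other traffic genes were chosen after seeing the data. Windows of 400 bp gave 11 members (13.8%), against 4.99% of all genes. With 95 further ranked peaks past the IDR threshold there were 15 members (18.8%), against 5.69%. The trimmed list of other traffic genes gave 8 (7.41%), against 5.68%. Read depth is not given, so a missing summit does not show absence of binding.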

Other observations

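Of the 15 members with a summit within 500 bp of the 5' end, 14 are transcribed from the minus strand, arf-6 being the exception. Among members without a summit 38 of 65 (58.5%) are on the minus strand, and among all genes with a summit 569 of 1134 (50.2%). This was noticed after the values were seen and was not tested.

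By chromosome, the members with a summit were 6 of 13 on chromosome IV, 3 of 9 on V, 3 of 12 on X, 2 of 17 on I, 1 of 14 on III and 0 of 15 on II. The share over all protein-coding genes was 5.82% on IV, 3.28% on V, 3.7% on X, 8.62% on I, 9.51% on III and 5.19% on II.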
